A study of Mus musculus with 10 samples.

Results

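This account covers the stretches of chromatin that carried acetylated histone H4 (H4Ac) in control cells and in cells with Myf5 but had no H4Ac peak in cells with MyoD. All cells were mouse embryonic fibroblasts of the genotype MyoD-/-; Myf5-/-, so neither factor was made from its own gene. Lentivirus brought in MyoD, Myf5 or, as the control, green fluorescent protein (GFP). Medium for differentiation followed 24 h after infection, and the cells were collected 20 h later. One H4Ac peak list came from each of the MyoD, Myf5 and GFP cells, and 1 peak list each from chromatin precipitated with the MyoD antibody in MyoD cells and the Myf5 antibody in Myf5 cells. The factors were supplied by virus to fibroblasts, so the cells model forced expression and not a muscle precursor.

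Rows of the 3 H4Ac lists that shared at least 1 bp were merged into 45627 regions, and each region was labelled by the cells that contributed a peak. The 2186 regions absent only in MyoD cells were chosen by these H4Ac peak calls: they hold a peak of GFP cells and a peak of Myf5 cells and none of MyoD cells. They made up 4.79% of all merged regions, and 10.5% of the 20797 regions called with both GFP and Myf5. In the other 18611 of those 20797 regions the cells with MyoD had a peak too. The mirror set, called with GFP and MyoD and absent only in Myf5 cells, held 3599 regions, or 16.2% of the 22210 regions called with GFP and MyoD. The MyoD list was the longest of the 3, and with H4Ac lists of equal length the regions absent only in MyoD cells numbered 2865. These counts follow from the H4Ac calls that chose the regions and were not tested.

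Acetylation of the tails of histone H4 loosens chromatin and marks active promoters and enhancers. MyoD and its relative Myf5 belong to the helix-loop-helix family of transcription factors, bind the E-box motif and direct cells to the skeletal muscle lineage. MyoD is known to bring histone acetyltransferases to its sites, and fibroblasts that take up MyoD turn on muscle genes and leave parts of their own program. The MyoD peaks and the Myf5 peaks did not enter the rule that chose the regions. They come from MyoD cells and Myf5 cells of the same study, and the regions were chosen with earlier results of these data known.

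Each H4Ac list stands for 1 sample, and the factor lists each cover 2 replicates together by their titles. No replicate error could therefore be computed, and no p-value is given. Intervals in parentheses are 95% intervals, exact binomial (Clopper-Pearson) for shares and Newcombe for differences between shares. They cover counting error only, and neighbouring regions are not independent. The lists held 36864 H4Ac peaks with MyoD, 32041 with Myf5 and 31120 with GFP, with median widths of 264, 373 and 349 bp. Coverage cutoffs ran from 19 to 26 reads with MyoD, from 20 to 31 with Myf5 and from 21 to 30 with GFP. The MyoD list had the lowest cutoff in each of the 5 GC bins. Sequencing depth is unknown from these files, and the coverage of the 2186 regions in MyoD cells is not listed, only that no peak was called.

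Where they were called, the 2186 regions had low H4Ac coverage. Strength is the authors' maximum read coverage in a peak, used within its own list, or its ratio to the authors' cutoff for the peak's GC content. In the GFP list, coverage at these regions ran from 21 to 79 reads with a median of 28, which was 1.15 times the cutoff at the median. In the Myf5 list it ran from 20 to 74 reads with a median of 29, or 1.20 times the cutoff. The regions called in all 3 populations stood at 1.75 times the cutoff in both lists, and the mirror set at 1.25 times in the GFP list. In rank, 53.5% (51.4 to 55.6) of the regions absent only in MyoD cells lay in the weakest 25% of the GFP list, against 28.0% (26.5 to 29.5) of the mirror set and 12.1% (11.6 to 12.6) of regions called in all 3. Regions called with GFP only were at 57.7% (56.2 to 59.1), with a median of 1.10 times the cutoff. In the Myf5 list, 35.8% (33.8 to 37.9) of the 2186 regions lay in the weakest 25%, against 62.1% (60.9 to 63.3) of regions called with Myf5 only. Only 17 of the 2186 lay in the strongest 25% of the GFP list, and 27 in the strongest 25% of the Myf5 list. The coverage was at least 1.5 times the cutoff in both lists for 51 regions, and at least 2 times for 2 regions.

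Values at the edge of the threshold were common. The coverage equalled the cutoff at 292 regions in the GFP list (13.4%) and at 228 in the Myf5 list (10.4%). Such values were more common still in regions called with GFP only (20.8% in the GFP list) and with Myf5 only (22.1% in the Myf5 list). They were less common in the mirror set (7.92% in the GFP list) and in regions called in all 3 (2.42% in the GFP list and 1.88% in the Myf5 list). At 1220 of the 2186 regions (55.8%) the ratio to the cutoff was higher in the Myf5 list than in the GFP list, against 49.9% of the regions called in all 3. Across the 2186 regions the coverages in the 2 lists had a Spearman correlation of 0.42, a description across regions whose values are all bounded below by the cutoffs. Across the 18611 regions called in all 3 it was 0.68.

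**Figure D1:**
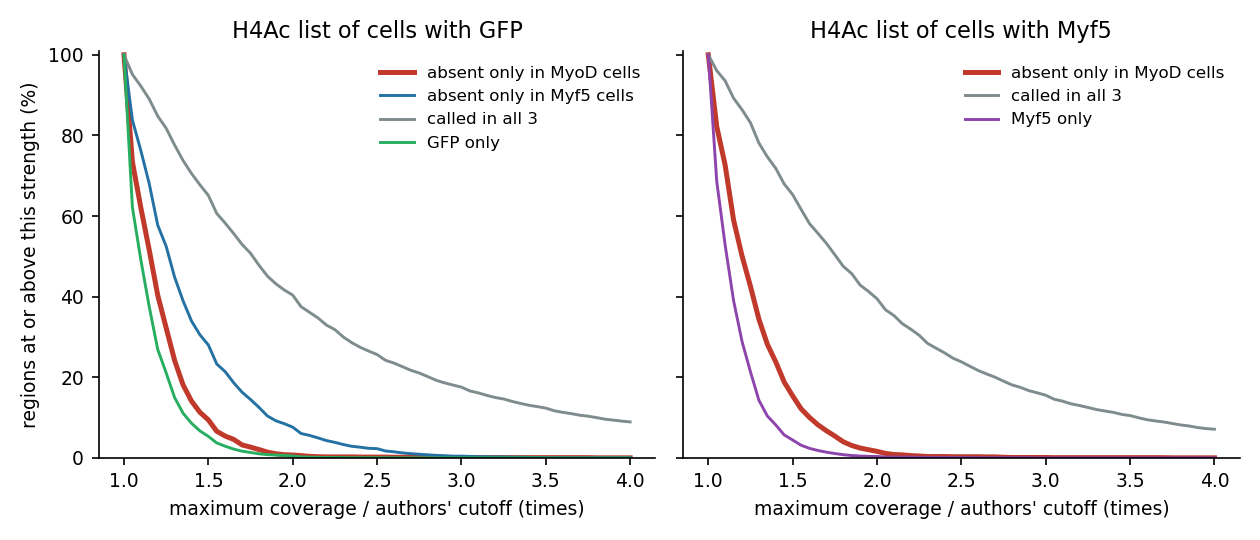
Share of H4Ac regions (%) whose maximum coverage reached a given multiple of the authors' cutoff, in the GFP list (left) and the Myf5 list (right), by the cells in which a region was called. The regions absent only in MyoD cells (thick line) drop to 9.42% at 1.5 times the cutoff in the GFP list and 15.4% in the Myf5 list, against 65.1% and 65.3% of the regions called in all 3.

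In place, the GFP and Myf5 peaks of a region matched closely. The rule itself asked that they overlap, and the match was not measured in other sets. Of the 2186 regions, 2102 held exactly 1 peak of each list. In those, the shared stretch had a median of 223 bp, and the narrower peak lay wholly inside the wider one at the median. Merged widths ran from 103 to 1795 bp with a median of 357 bp, against 340 bp in the mirror set and 565 bp for regions called in all 3.

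In GC content the set was poorer than the mirror set and richer than the regions called with Myf5 only. The authors placed each peak in 1 of 5 GC bins, and the bin of the GFP peak was used where a region had one. Regions without a GFP peak took the bin of their Myf5-cell peak, and those with neither took that of their MyoD-cell peak. The bin of at most 40% GC held 26.6% (24.8 to 28.5) of the regions absent only in MyoD cells, against 6.84% (6.03 to 7.71) of the mirror set and 11.1% (10.6 to 11.5) of regions called in all 3. It held 19.0% of regions called with GFP only, 22.0% of those called with both factors and not GFP, 39.6% of those called with Myf5 only and 17.9% of all merged regions. Only 12 of the 2186 regions lay above 55% GC, against 137 of the 3599 in the mirror set. The lists themselves differed in this respect: the bin of at most 40% GC held 13.1% of the MyoD list, 19.2% of the Myf5 list and 13.3% of the GFP list. What part that difference between the lists has in the GC content of the regions was not tested.

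Few of these regions carried a MyoD peak. A MyoD peak overlapped 313 of the 2186 regions absent only in MyoD cells, or 14.3% (12.9 to 15.9), against 28.8% of all merged regions. In the mirror set the share was 31.6% (30.1 to 33.1), a difference of -17.3 percentage points (-19.4 to -15.1). A Myf5 peak overlapped 692 of the 2186 regions, or 31.7% (29.7 to 33.7), against 46.3% of all merged regions. The mirror set stood at 50.7% (49.0 to 52.3), a difference of -19.0 points (-21.5 to -16.5). Against the regions called in all 3, the differences were -18.0 points (-19.6 to -16.4) at MyoD peaks and -21.4 points (-23.5 to -19.3) at Myf5 peaks. With the stronger 50% of each factor list, 6.68% of the 2186 regions lay at a MyoD peak and 17.0% at a Myf5 peak, and the shares in the mirror set stayed above them. With both H4Ac peaks at 1.5 times the cutoff or more, 5 of 51 regions lay at a MyoD peak, a difference of -31.7 points (-39.2 to -19.5) from the mirror set. Peaks of both factors were thus less frequent than in either of these sets, by more than the counting error.

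Most of the factor peaks at these regions belonged to sites of both factors or of Myf5 alone, as over all merged regions. The Myf5 list was the longer, with 93787 peaks against 45015 in the MyoD list. With a Myf5 list as long as the MyoD list, 16.5% of the 2186 regions lay at a Myf5 peak. Peaks of both factors lay at 306 regions (14%, against 28.2% of all merged regions). A Myf5 peak without a MyoD peak lay at 386 regions (17.7%, against 18.1% of all merged regions), a share near that of all regions. A MyoD peak without a Myf5 peak lay at 7 regions (0.320%, against 0.585% of all merged regions). No peak of either factor lay at 1487 regions (68.0%, 66.0 to 70.0), against 48.9% (47.2 to 50.5) of the mirror set and 53.1% of all merged regions. The share with none was 64.0% in regions called with GFP only and 72.8% in those called with Myf5 only, on either side of the 2186 regions.

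A low share of MyoD peaks, and of Myf5 peaks, was common to the sets without H4Ac in MyoD cells. For MyoD peaks it was 14.3% in the regions absent only in MyoD cells, 17.8% in regions called with GFP only and 13.9% in regions called with Myf5 only. The 4 sets that had H4Ac in MyoD cells ranged from 31.6% in the mirror set to 40.9% in regions called with MyoD only. For Myf5 peaks the first 3 sets stood at 31.7%, 35.6% and 26.4%. The 4 sets with H4Ac in MyoD cells ranged from 50.0% in regions called with both factors and not GFP to 54.5% in regions called with MyoD only. The division was thus not particular to MyoD peaks. Set against the regions called with GFP only, the regions absent only in MyoD cells differed by -3.44 points (-5.23 to -1.58) at MyoD peaks, and against those called with Myf5 only by 0.46 points (-1.19 to 2.21). The second interval includes 0.

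**Figure D2:**
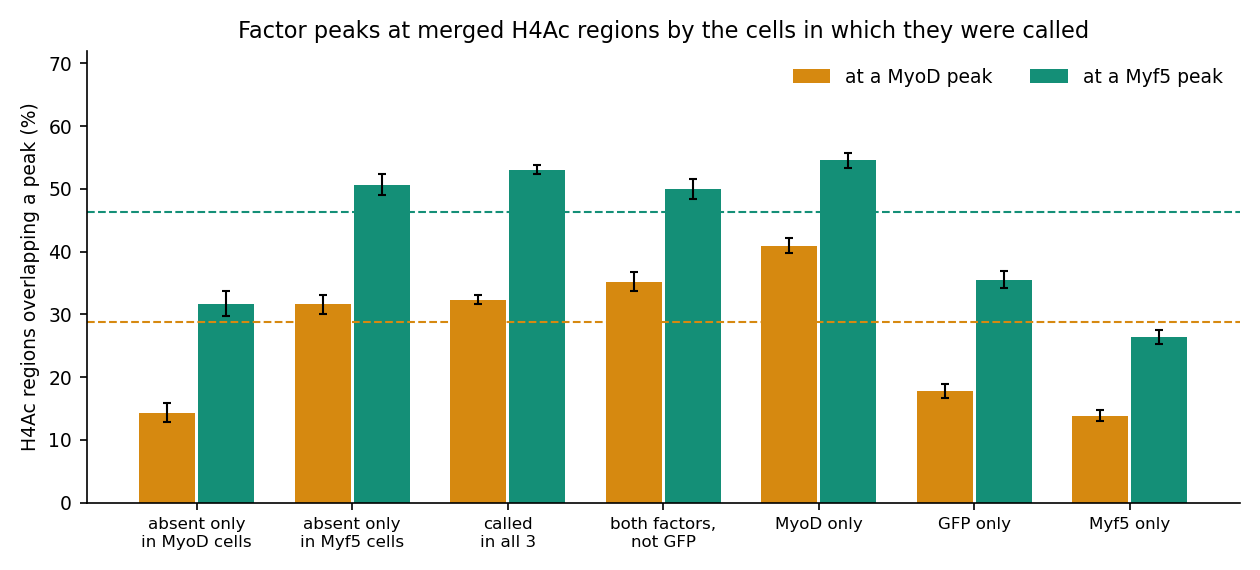
Share of merged H4Ac regions (%) that overlap a MyoD peak (orange) or a Myf5 peak (green), by the cells in which a region was called, with exact 95% binomial intervals and dashed lines at the shares of all merged regions. The regions absent only in MyoD cells stand at 14.3% and 31.7%, below the dashed lines at 28.8% and 46.3%.

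The factor peaks that did lie at these regions were weaker within their lists than those of the mirror set. The MyoD peaks at regions absent only in MyoD cells had a median coverage of 48 reads (48.4th percentile of the MyoD list), against 68 reads (66.9th percentile) in the mirror set. The Myf5 peaks had a median of 60 reads (53.9th percentile of the Myf5 list), against 84 reads (67.8th percentile) in the mirror set. Of the 313 regions at a MyoD peak, 33 lay at one from the strongest 10% of the list, or 10.5% (7.37 to 14.5), against 19.8% (17.5 to 22.2) of the mirror regions at a MyoD peak. The sets most like the 2186 regions were close to them: the MyoD peaks stood at a median percentile of 52.0 in regions called with GFP only and 55.4 in regions called with Myf5 only.

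Read from the other side, regions called with GFP and Myf5 lacked a MyoD-cell peak less often at a MyoD peak, and least often at the strongest MyoD peaks. Of such regions at a MyoD peak, 4.94% (4.42 to 5.51) had no H4Ac peak in MyoD cells, against 12.9% (12.4 to 13.5) of those without a MyoD peak and 10.5% of all. With the MyoD list split by coverage into 3 classes of equal size, the share was 6.54% (5.38 to 7.86) at the weakest peaks, 5.96% (4.92 to 7.14) at the middle ones and 3.40% (2.77 to 4.13) at the strongest. At the strongest 10% of MyoD peaks it was 2.87% (1.99 to 4.01).

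Sorted by Myf5 peaks, the same regions gave a like fall. Of regions called with GFP and Myf5, 6.55% (6.08 to 7.04) at a Myf5 peak had no H4Ac peak in MyoD cells, against 14.6% (13.9 to 15.3) of those without a Myf5 peak. By classes of Myf5 strength the shares were 8.34%, 7.24% and 5.27% from weakest to strongest, and 3.57% at the strongest 10% of Myf5 peaks. The fall was thus seen with peaks of both factors, and 306 of the 313 regions at a MyoD peak were also at a Myf5 peak. At peaks of both factors, 306 regions lacked a MyoD-cell peak and 5919 had one. At a Myf5 peak without a MyoD peak these counts were 386 and 3957, and with no factor peak 1487 and 8634. The fall with Myf5 peaks therefore includes sites shared with MyoD.

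In these values, the share of regions with no peak in Myf5 cells varied less with either factor. Of regions called with GFP and MyoD, 15.6% (14.9 to 16.3) at a Myf5 peak had no peak in Myf5 cells, against 16.9% (16.2 to 17.6) without a Myf5 peak. By classes of Myf5 strength the shares were 14.7% (13.3 to 16.1), 14.8% (13.7 to 16.0) and 16.5% (15.5 to 17.5) from weakest to strongest. At MyoD peaks, 15.9% (15.0 to 16.8) of these regions had no peak in Myf5 cells, against 16.4% (15.8 to 17.0) without a MyoD peak. The slopes for the 2 populations were not tested against each other, and the shares for Myf5 cells were not taken within classes of H4Ac strength.

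The shares without a MyoD-cell peak, among regions called with GFP and Myf5, were also taken within classes of H4Ac strength. The GFP strength of the 2186 regions was split into 5 classes, which held 393 to 492 of them each. In the weakest class, 24.2% (19.4 to 29.4) of regions at a MyoD peak had no peak in MyoD cells, against 40.9% (37.9 to 44.0) of those without one. In the strongest class, over 1.33 times the cutoff, the shares were 1.23% (0.939 to 1.59) and 3.73% (3.36 to 4.13). The share at a MyoD peak was the lower in all 5 classes. The limits of the classes were set on the 2186 regions, so the strongest class has no upper limit. It held 4791 regions at a MyoD peak and 9516 without one, against 298 and 1026 in the weakest class. Strength was therefore not held equal within the strongest class. Among regions with GFP and Myf5 coverage of at least 1.5 times the cutoff, the difference was -0.587 points, against -8.01 points over all regions. There only 51 regions lacked a MyoD-cell peak, beside 9550 called in all 3, which keeps any difference in points small. Of those 51, 9.80% lay at a MyoD peak, against 14.3% of the 2186.

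The difference from the mirror set was also taken within classes. By GFP strength, 13.1% to 15.8% of the regions absent only in MyoD cells lay at a MyoD peak in the 5 classes, against 26.9% to 34.9% of the mirror set, and all 5 intervals of the difference lay below 0. By width the same held in all 5 classes, with differences of -23.0 to -13.0 points. By GC it held in 4 of 5 bins. In the bin of at most 40% GC, 5.50% (3.79 to 7.67) of 582 regions absent only in MyoD cells lay at a MyoD peak, against 14.2% (10.1 to 19.2) of 246 in the mirror set. In the bin above 55% GC the direction turned, at 5 of 12 regions against 34.3% of 137, with an interval of -16.5 to 34.8 points. With the mirror set reweighted to the GC bins of the regions absent only in MyoD cells, the difference was -12.3 points at MyoD peaks and -12.0 points at Myf5 peaks. These compare with -17.3 and -19.0 points without reweighting.

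**Figure D3:**
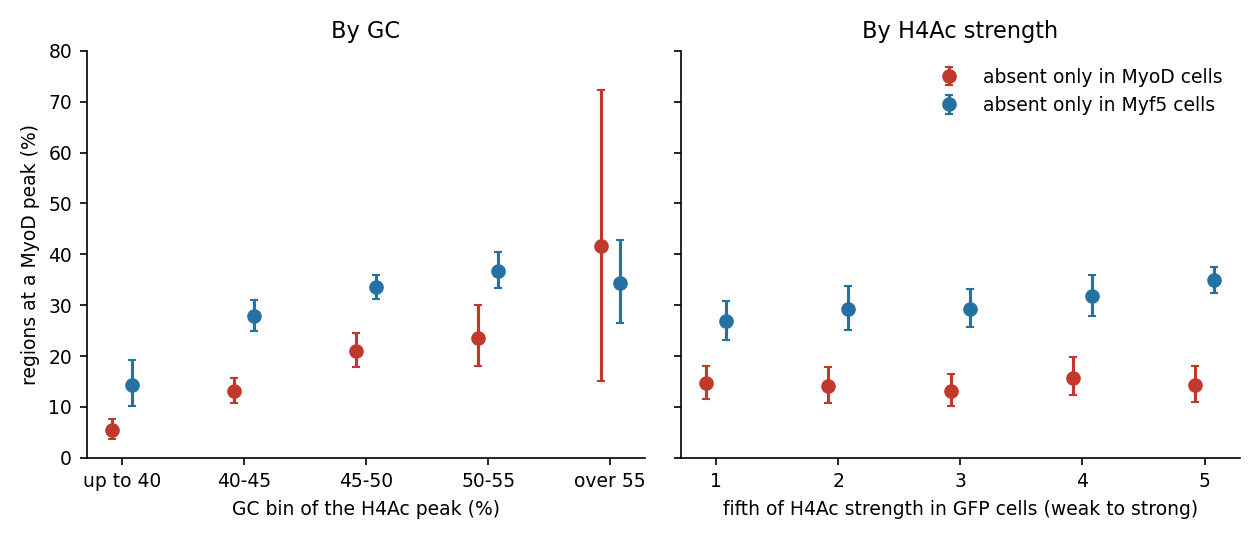
Share of H4Ac regions (%) at a MyoD peak, by GC bin (left) and by class of GFP coverage over cutoff (right), with exact 95% binomial intervals, for regions absent only in MyoD cells and for the mirror set absent only in Myf5 cells. The first set lies lower in every class but the bin above 55% GC, which holds 12 of its regions.

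The low number of factor peaks was seen near the region centre and not at 2 to 3 kb. Within 500 bp of the region centre, the regions absent only in MyoD cells had 12.6 MyoD peak centres per 100 regions and kb, against 28.7 in the mirror set and 25.8 in regions called in all 3. At 2 to 3 kb from the centre the densities were 4.73, 5.04 and 4.69. Myf5 peak centres numbered 24.9 per 100 regions and kb near the centre, against 42.7 in the mirror set and 40.7 in regions called in all 3. Their densities at 2 to 3 kb were 9.08, 9.70 and 9.75. Peaks of both factors were thus denser at the centre than in the flanks of the regions absent only in MyoD cells, by 2.66 times for MyoD and 2.74 times for Myf5. In the mirror set these ratios were 5.70 and 4.40.

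**Figure D4:**
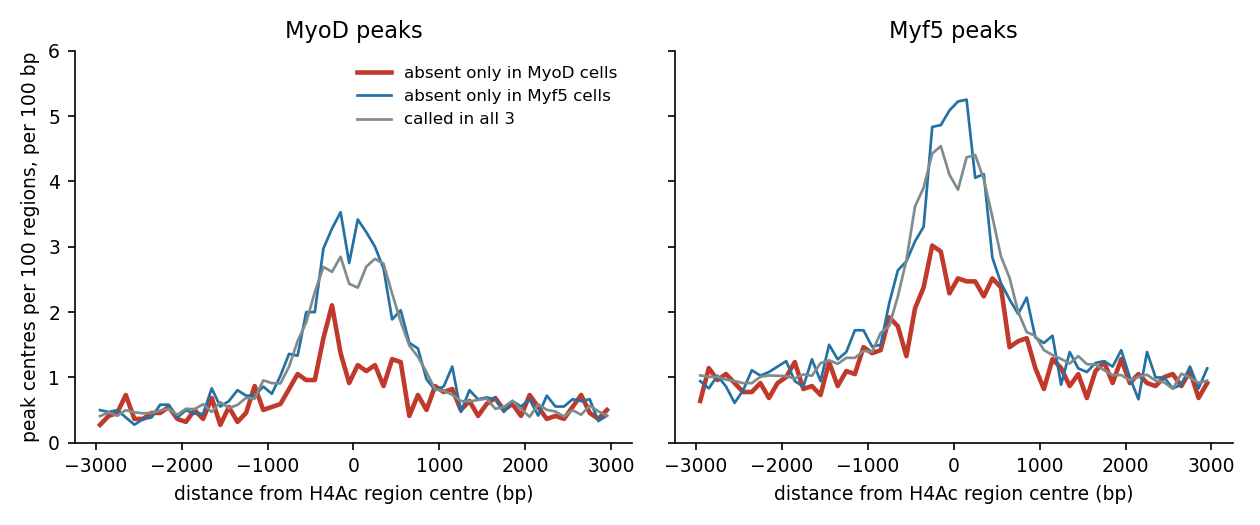
Centres of MyoD peaks (left) and Myf5 peaks (right) per 100 H4Ac regions in steps of 100 bp, by distance from the region centre (bp). The regions absent only in MyoD cells (thick line) lie below the mirror set and the regions called in all 3 near the centre, and the 3 lines come close together at 2000 to 3000 bp.

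Many of the regions had H4Ac in MyoD cells close by. The nearest H4Ac peak of MyoD cells lay 2791 bp away at the median, and 267 bp or less away for 25% of the regions. It lay within 1000 bp for 909 regions, or 41.6% (39.5 to 43.7). In the mirror set, 1621 of 3599 regions had an H4Ac peak of Myf5 cells within 1000 bp (interval of the share 43.4% to 46.7%). A region called in all 3 populations lay within 1000 bp of 677 of the 2186 regions (31.0%), against 1305 of the 3599 mirror regions (36.3%). Close neighbours of these kinds were thus not particular to the regions absent only in MyoD cells. Without the 909 regions, the set fell to 1277 regions, of which 11.4% (9.67 to 13.2) lay at a MyoD peak and 27.5% (25.1 to 30.0) at a Myf5 peak. Merging rows up to 500 bp apart left 1429 regions.

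Regions at a factor peak had such neighbours more often than regions with none. Of the 313 regions at a MyoD peak, 53.7% (48.0 to 59.3) had an H4Ac peak of MyoD cells within 1000 bp, against 37.8% (35.3 to 40.3) of the 1487 regions with no factor peak. Among the 386 regions at a Myf5 peak and no MyoD peak it was 46.4% (41.3 to 51.5). In the mirror set the matching shares for H4Ac of Myf5 cells were 46.9% (43.9 to 49.8) at a MyoD peak and 43.1% (40.8 to 45.4) with no factor peak. Around the 2186 regions, flanking H4Ac of MyoD cells was most frequent 600 bp from the centre on the low-coordinate side, at 10.9%. On the other side it was most frequent 500 bp from the centre, at 10.1%. At the first of these positions, peaks of GFP cells stood at 14.3% of the regions and peaks of Myf5 cells at 17.2%, so such flanks were not particular to MyoD cells.

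**Figure D5:**
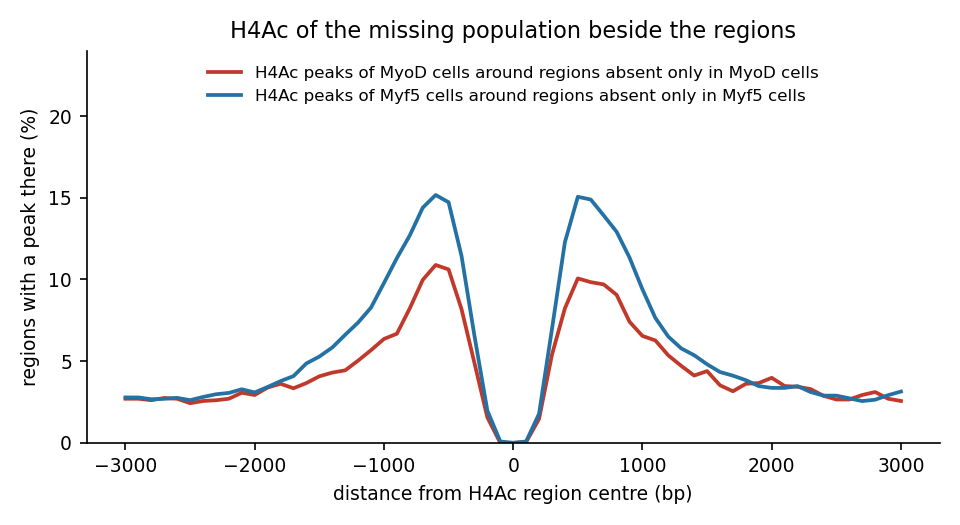
Share of regions (%) covered by an H4Ac peak of the missing population, by distance from the region centre (bp): MyoD-cell peaks around regions absent only in MyoD cells, and Myf5-cell peaks around the mirror set. The value of 0 at the centre follows from how the sets were chosen, and the lines reach 10.9% and 15.2% at 600 bp on the low-coordinate side.

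The rule turns on 1 bp. The region on chromosome 10 at 106940078 to 106940618 lay 2 bp from a MyoD-cell peak, while 24914706 to 24915179 of chromosome 16 lay 3 bp from one, as did 180260247 to 180260517 of chromosome 1. In all, 85 of the 2186 regions had a MyoD-cell peak fewer than 50 bp away. Just outside the rule, 9 of the 18611 regions called in all 3 owed their MyoD-cell label to fewer than 50 shared bp, the fewest being 11. The most isolated regions were on chromosome 12 at 64205075 to 64205306, with the nearest MyoD-cell peak 1861463 bp away, and at 64305739 to 64306051, 1760718 bp away. The next was on chromosome 8 at 52053034 to 52053248, 1618957 bp away. All 3 were in the bin of at most 40% GC, with GFP coverages of 22, 23 and 21 and Myf5 coverages of 27, 27 and 21, and none carried a factor peak.

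The regions strongest in both H4Ac lists, ranked by the lower of the 2 ratios to the cutoff, included 2 with a Myf5 peak and none with a MyoD peak. At the head stood 20017337 to 20017868 of chromosome 8, whose coverage was 79 with GFP and 74 with Myf5. It overlapped peaks of both mock precipitations, which used the MyoD or the Myf5 antibody in cells with GFP. Its control coverage was 31 in both H4Ac lists, against a median of 4 in each. An H4Ac peak of MyoD cells with a coverage of 462 lay 1722 bp away. The second lay on chromosome 5 at 101064964 to 101066533, at 70 with GFP and 73 with Myf5, or 2.69 and 2.70 times the cutoffs. It was 1570 bp wide, had control coverages of 5 and 4, no factor peak, and no MyoD-cell peak within 12680 bp.

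Of the next 3 by strength, that on chromosome 14 at 28637323 to 28637746 had coverages of 51 with GFP and 46 with Myf5, a Myf5 peak of coverage 45 and a MyoD-cell H4Ac peak 170 bp away. The region from 180840533 to 180841184 of chromosome 1 had 50 with GFP and 51 with Myf5. Its Myf5 peak had a coverage of 28 (1.15th percentile of that list), and its nearest MyoD-cell peak was 131263 bp away. The region from 191500537 to 191500848 of chromosome 1 had 38 with GFP and 40 with Myf5, no factor peak and a distance of 39687 bp.

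The 5 regions with the strongest MyoD peaks all had H4Ac of MyoD cells within 412 bp. The strongest MyoD peak, of coverage 772, overlapped 126147589 to 126148078 of chromosome 2, where Myf5 reached 1719. Its H4Ac coverage was 45 with GFP and 27 with Myf5, and an H4Ac peak of MyoD cells with a coverage of 102 began 412 bp away, at 126148491. The next, on chromosome 17 at 75951510 to 75951684, had factor coverages of 525 (MyoD) and 707 (Myf5), and a MyoD-cell H4Ac peak of 57 lay 359 bp away. The cutoff at both of those neighbouring peaks was 21.

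The other 3 were alike in layout. On chromosome 6, the region 87819175 to 87819487 had a MyoD peak of 370 and a Myf5 peak of 822, and a MyoD-cell H4Ac peak of 21 lay 226 bp away. On chromosome 18, the region 49991995 to 49992140 had factor coverages of 283 (MyoD) and 431 (Myf5), and an H4Ac peak of 34 lay 194 bp away. On chromosome 10, the region 24498076 to 24498229 had 281 (MyoD) and 557 (Myf5), and an H4Ac peak of 46 lay 28 bp away. Of these 5 regions, 4 were 146 to 313 bp wide, against a median of 357 bp over the set.

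The strongest Myf5 peaks without a MyoD peak lay at more varied distances. That with the highest Myf5 coverage, 550, overlapped 27471697 to 27472169 of chromosome 14. Its H4Ac coverage was 35 with GFP and 22 with Myf5, and the nearest MyoD-cell peak was 4713 bp away. The second, on chromosome 1 at 51344961 to 51345688 (Myf5 coverage 498), had H4Ac coverages of 34 with GFP and 54 with Myf5, and a MyoD-cell peak of 56 lay 263 bp away. The third was on chromosome 9 at 109870806 to 109871169 (Myf5 coverage 412), with H4Ac of 32 with GFP and 24 with Myf5. The fourth, on chromosome 4 at 132963264 to 132963764 (391), was the only one of the 5 with no MyoD-cell peak within 10000 bp, at a distance of 27846 bp. The fifth was on chromosome 18 at 55059821 to 55060295 (383). The ratio of H4Ac coverage to the cutoff was higher in the Myf5 list than in the GFP list at 2 of these 5 regions.

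The widest region was 4507177 to 4508971 of chromosome 2, at 1795 bp. It had coverages of 34 with GFP and 30 with Myf5 and no factor peak, and its nearest MyoD-cell peak was 17322 bp away. Next came 10370440 to 10372131 of chromosome 19 (1692 bp), with 41 with GFP and 34 with Myf5, no factor peak and a distance of 5298 bp. Then came 119890416 to 119892002 of chromosome 10 (1587 bp), with 28 with GFP and 36 with Myf5, a MyoD peak of 91, a Myf5 peak of 161 and a MyoD-cell H4Ac peak 737 bp away.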

How the data were processed

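Peak lists of 7 samples were used, and 3 input samples entered no comparison. Factor chromatin was fixed for 11 min before precipitation, whereas micrococcal nuclease (15 units, 18 min) digested unfixed chromatin for H4Ac, per the labels' protocols. The submitters' processing notes name BWA 0.7.5 and CASAVA 1.8.2 as tools, and hg19 and mm9 as builds, with no role for either. The lists hold mouse chromosomes (19 autosomes and X), and positions are given as mm9. The peak caller is not given in the sources used here. Per the file headers, the authors deposited a maximum coverage (signal) for every peak together with the cutoff that applied to its GC bin. The p-value is the authors' own and reached at most 9.52e-06 in the H4Ac lists. Depth per sample is unknown.

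H4Ac rows were merged by shared bases of at least 1 bp, and overlap with factor peaks used the same minimum. The regions and all comparisons were chosen with earlier results of these data known. Positions are named by a fixed rule: the 5 strongest in both H4Ac lists, the 5 with the strongest MyoD peak, the 5 with the strongest Myf5 peak and no MyoD peak, the 3 widest, and the 3 nearest to and 3 farthest from a MyoD-cell peak. Genes and sequences at the regions were not used here, because the gene tables are of another build. Merging and overlap were tested on 20000 simulated regions with known classes, and 0 were misplaced. Scripts ran in Python 3.11.15 with scipy 1.17.1 for intervals, pandas 2.3.3, matplotlib 3.10.9 for figures, and numpy 2.4.6.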

Additional observations from a re-analysis of the deposited data

Results flagged for a closer look

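The mock precipitations, used otherwise only to leave regions out, held peaks at a few of the regions: 5 of the 2186 regions absent only in MyoD cells overlapped a mock peak (0.229%, 0.0743 to 0.533), against 57 of all 45627 merged regions (0.125%). The interval includes the share of all merged regions, so the count does not set these regions apart. They include the region on chromosome 8 at 20017337 named above and a second one on that chromosome, at 20020507 to 20021246 (H4Ac coverage 28 with GFP and 45 with Myf5). The others lay on chromosome 14 at 44108772 to 44109495 (40 and 45) and at 43952808 to 43953429 (29 and 43), and on the X chromosome at 53389988 to 53390219 (25 and 23). Without regions at mock peaks, 14.3% of 2181 regions lay at a MyoD peak.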

How the results depend on the processing

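No paired analysis was possible because each group has 1 list, and no replicate could be left out. Of 59 alternative values, 28 stayed within the counting interval (within 1.5 times for a number of regions) and 31 moved beyond it. None of the differences changed direction. Numbers of regions and shares cannot be negative, so a change of direction was possible only for the differences. Merging rows within 500 bp left 1429 regions, with 12.7% at a MyoD peak, 29.2% at a Myf5 peak and a difference from the mirror set of -19.4 points at MyoD peaks. Leaving out regions within 1000 bp of a peak of the absent population left 1277, with 11.4% and 27.5% and a difference of -21.6 points at Myf5 peaks; the share lacking a MyoD-cell peak was not recomputed there. H4Ac lists of equal length gave 2865 regions, with 15.8% and 33.5%. With H4Ac at 1.5 times the cutoff, 51 regions remained, with 9.80% and 37.3%, and differences of -31.7 and -22.0 points. The difference in regions lacking a MyoD-cell peak, MyoD peak against none, was -8.01 points as reported. It was -0.587 points there, where only 51 regions lacked such a peak, which keeps any difference in points small. It was -9.64 points with H4Ac lists of equal length, -6.67 with region centres and -9.40, -10.0, -12.3 and -13.6 when reweighted by GC, width, GFP strength and all 3 together. Region centres inside the factor peak gave 9.93% and 24.1%. The stronger part (50%) of each factor list gave 6.68% and 17.0%, with a MyoD difference of -14.0 points, and a Myf5 list as long as the MyoD list 16.5% and -16.1 points. Reweighting the mirror set by GC gave -12.3 and -12.0 points, and by GC, width and strength together -11.9 and -11.7 points. The reweighting by strength and the share lacking a MyoD-cell peak were added after seeing the data. Other than fewer regions or factor peaks, the cause of these moves was not tested. With 1 list a population and unknown depth, a missing peak cannot be told apart from a peak just under the threshold.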

Other observations

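The regions absent only in MyoD cells were spread over all 20 chromosomes in the lists, from 38 on the X chromosome to 203 on chromosome 1. Per 100 merged H4Ac regions of a chromosome, they numbered from 3.39 on chromosome 17 to 5.37 on chromosome 19. Few lay close together: 177 of the 2186 (8.10%, 6.99 to 9.32) had another within 1000 bp, against 13.8% (12.7 to 15.0) of the mirror set. Within 10000 bp the shares were 16.1% (14.5 to 17.7) and 20.6% (19.3 to 22.0). The mirror set is larger, 3599 regions against 2186, which by number alone gives its regions more neighbours of their own kind, and the shares were not corrected for it.

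The densest 3 stretches, chosen after their values were seen, held 7 of them within 100 kb. That on chromosome 10 at 96965714 to 97058154 had a Myf5 peak at 6 of the 7 and a MyoD peak at 3. That on chromosome 11 at 86386130 to 86422222 had peaks of each factor at 3. The stretch on chromosome 14 at 87438657 to 87510350 had no factor peak at any of its 7, and 26 of the 53 H4Ac regions in its 100 kb were called in MyoD cells.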
